A study of Arabidopsis thaliana with 9 samples.

Results

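Stems of the ccr-1 mutant of Arabidopsis thaliana were compared with wild-type stems across all probe sets of an expression array. The members are the 3 ccr-1 arrays and the 3 wild-type arrays, 6 of the 9 arrays of the series, chosen by their labels and not by any measured value. The other 3 arrays came from an RNA interference line against HCT and are used below to show where ccr-1 differed from that line in a direct test. All groups were of the Columbia-0 ecotype. The ccr-1 mutant carries a loss of function in CCR1, HCT-RNAi plants express an interfering construct against HCT, with no promoter named by the labels, and wild-type plants carry neither. Per the labels, plants were 1.5 months old and grown at 21 °C with 16 h of light and 8 h of darkness, and 1.5 µg of RNA from inflorescence stems was labelled per sample. Whether replicate arrays came from separate plants is not stated, so p-values reflect only the spread between arrays, which may be technical.

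Lignin is a phenolic polymer that stiffens the secondary walls of xylem vessels and fibres. Its building blocks, the monolignols, are made from phenylalanine, and cinnamoyl-CoA reductase (CCR1) turns the activated acids into aldehydes at the entry to the branch reserved for lignin. HCT acts upstream of CCR1 in the same pathway. In a growing stem the secondary wall genes of cellulose, xylan and lignin are switched on together by a cascade of NAC and MYB transcription factors. Seed storage proteins, oil body proteins and late embryogenesis abundant proteins are normally made in maturing embryos, under regulators such as FUS3 and LEC1-type factors. Senescing tissue breaks down proteins, nucleic acids and chlorophyll and exports the released nitrogen and carbon.

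Values are log2 intensities. Across probe sets, replicate arrays had correlations of 0.997 to 0.999, and ccr-1 arrays with wild-type arrays 0.949 to 0.953. The median standard deviation between arrays of a group was 0.07 in wild type and 0.08 in ccr-1. A change is the difference of group means, given ± its standard error (SE, n = 3 arrays per group), and was called at an adjusted p under 0.05 with limma and Benjamini-Hochberg adjustment over all 22746 probe sets. By this rule 54.9% of probe sets were called between ccr-1 and wild type, 24.7% higher and 30.1% lower in ccr-1, so a call alone says little. With at least a 2-fold change the shares were 5.23% higher and 3.71% lower. The ccr-1 and wild-type arrays did not overlap in 59.3% of probe sets. The median change of all probe sets was -0.04. Of the genes in the lists below, 239 of 348 could be named only through a table in which the authors deposited selected probe sets. Of all genes named that way 48.4% were called higher and 44.5% lower (524 and 380 of 1729 by at least 2-fold), against 23.3% and 27.9% of those named by the platform annotation. The members' counts are to be read against these shares, and the median of members named by the platform annotation is added where it differs in sign or by more than 1.5 times.

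Rises reached further than falls. At least a 4-fold rise was found in 416 probe sets and at least a 4-fold fall in 72. At 16-fold the counts were 87 and 1, and at 32-fold they were 50 and 0. Of the 25 named genes with the largest rises, which ranged from 6.07 to 9.79 on the log2 scale, 13 belonged to the lists described here, most of them seed genes. The 25 largest falls ranged from -2.38 to -4.12.

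**Figure D1:**
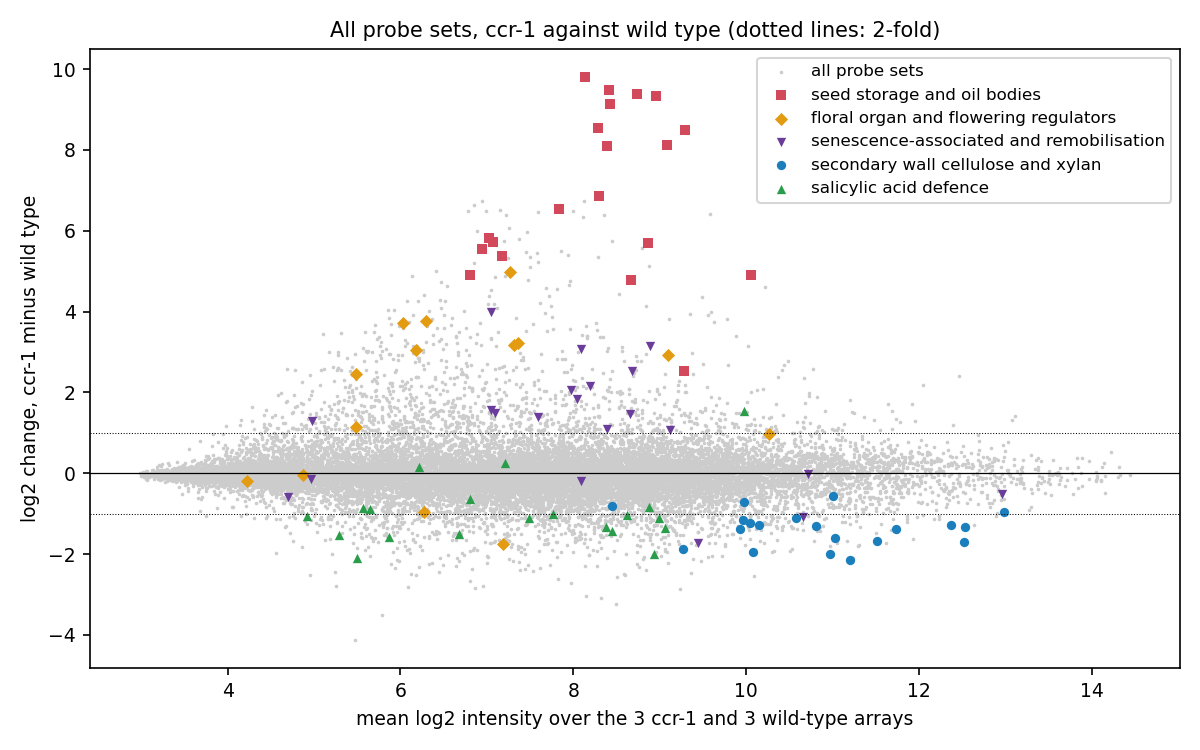
Log2 change of each probe set, ccr-1 minus wild type (vertical axis), against its mean log2 intensity over the 3 ccr-1 and 3 wild-type arrays (horizontal axis), with 5 gene lists coloured and dotted lines at a 2-fold change. Seed storage and oil body genes (squares) sit at the top with a median change of 6.70, and secondary wall cellulose and xylan genes (circles) lie below 0 with a median of -1.32.

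The targeted gene was lower in the mutant. CCR1 (AT1G15950) was at 11.87, 11.85 and 11.90 in wild type and 10.01, 10.17 and 10.02 in ccr-1, a fall of 1.81 ± 0.06 (adjusted p = 7.84e-11), and the groups did not overlap. The labels do not place this probe set relative to the mutation. A fall of this size was not particular to CCR1, as the secondary wall cellulose and xylan list described below changed by -0.56 to -2.13. Transcripts of the stem's own tissues were present in both groups. The 7 named photosynthesis genes had a summed linear intensity of 63597 to 64388 in wild type and 54363 to 55040 in ccr-1. The 3 named proteases and nucleases of dying xylem cells summed to 2328 to 2616 and 2301 to 2419, overlapping ranges. Root markers were low: PYK10, a root glucosidase, was called present on none of the 6 arrays by the authors' detection calls, and EXP7, a root hair expansin, was at 4.31, 4.72 and 4.56 in wild type and 4.72, 4.37 and 4.75 in ccr-1.

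Seed storage and oil body transcripts had the highest median change of the 28 lists. All 20 named genes of that list were called higher, all 20 by at least 2-fold, with changes from 2.53 to 9.79 and a median of 6.70 (16 of them named through the authors' table). Their summed linear intensity was 907 to 956 in wild type and 103099 to 106497 in ccr-1. In bulk RNA, more cells of a type and more RNA per cell cannot be told apart. In ccr-1 every member was called present on all 3 arrays, and in wild type 11 of the 20 were called present on none. For such genes the wild-type level is a bound, and the rise is written as "at least". Genes called present on only some wild-type arrays keep their fitted change, which rests in part on values called absent. Among genes described below these were, with 1 array present, SESA2, SESA3, OLEO1, HSD1, MFT, SUC5, CWINV4, NAC055, JMT, PR3, ATS3, AT1G47540 and AT3G01570. With 2 arrays present they were CRU3, FUS3, FAE1, TT10, EPR1, AG, SEP2, MYB21, AT5G38160, LTP2, MYB90, APL4 and AT5MAT.

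CRU2 (AT1G03880), a 12S globulin, was at 4.32, 4.36 and 4.19 in wild type and 13.61, 13.59 and 13.66 in ccr-1. No wild-type array came near the ccr-1 values. It was at least 644-fold higher in ccr-1 (adjusted p = 1.32e-16). CRA1 (AT5G44120), another globulin, was at 3.83, 4.08 and 4.24 in wild type and 13.30, 13.50 and 13.49 in ccr-1 and rose at least 667-fold (adjusted p = 1.65e-15). CRU3 (AT4G28520), the remaining globulin of the list, was at 4.86, 5.10 and 5.19 in wild type and 13.57, 13.59 and 13.49 in ccr-1. It rose by 8.50 ± 0.08. For none of the 3 globulins did the groups overlap.

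The 2S albumins are the other main storage proteins of the Arabidopsis embryo. SESA2 (AT4G27150) was at 3.30, 3.18 and 3.23 in wild type and 13.05, 13.14 and 12.90 in ccr-1, a change of 9.79 ± 0.07 (adjusted p = 1.32e-16), with 2 of the 3 wild-type arrays called absent. SESA3 (AT4G27160) rose by 9.48 ± 0.06, SESA1 (AT4G27140) at least 373-fold, SESA4 (AT4G27170) at least 566-fold and SESA5 (AT5G54740) by 6.86 ± 0.08. The first 4 genes are related neighbours, so their probe sets may share signal. PAP85 (AT3G22640), a vicilin-like storage protein, was at 4.71, 4.71 and 4.26 in wild type and 10.88, 11.10 and 11.35 in ccr-1 and rose at least 93.6-fold, with more spread between ccr-1 arrays than the globulins had.

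Oleosins coat oil bodies. OLEO1 (AT4G25140) was at 4.98, 5.15 and 4.93 in wild type and 13.01, 13.16 and 13.26 in ccr-1 (change 8.13 ± 0.08, adjusted p = 1.22e-15), and OLEO2 (AT5G40420) at 4.38, 4.15 and 4.51 in wild type and 12.47, 12.46 and 12.37 in ccr-1 (at least 271-fold). OLEO4 (AT3G27660) was called present on all wild-type arrays, at 7.54, 7.70 and 7.56 in wild type and 12.43, 12.47 and 12.64 in ccr-1, and rose by 4.91 ± 0.07. The groups did not overlap for any oleosin of the list. Further oil body proteins rose, the caleosin ATS1 (AT4G26740) at least 46.5-fold and the steroleosin HSD1 (AT5G50600) by 5.83 ± 0.07. The tonoplast aquaporins of protein storage vacuoles, TIP3;1 (AT1G73190) and TIP3;2 (AT1G17810), rose at least 27.4-fold and at least 41.9-fold. PER1 (AT1G48130), a seed peroxiredoxin, rose at least 52.9-fold.

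**Figure D2:**
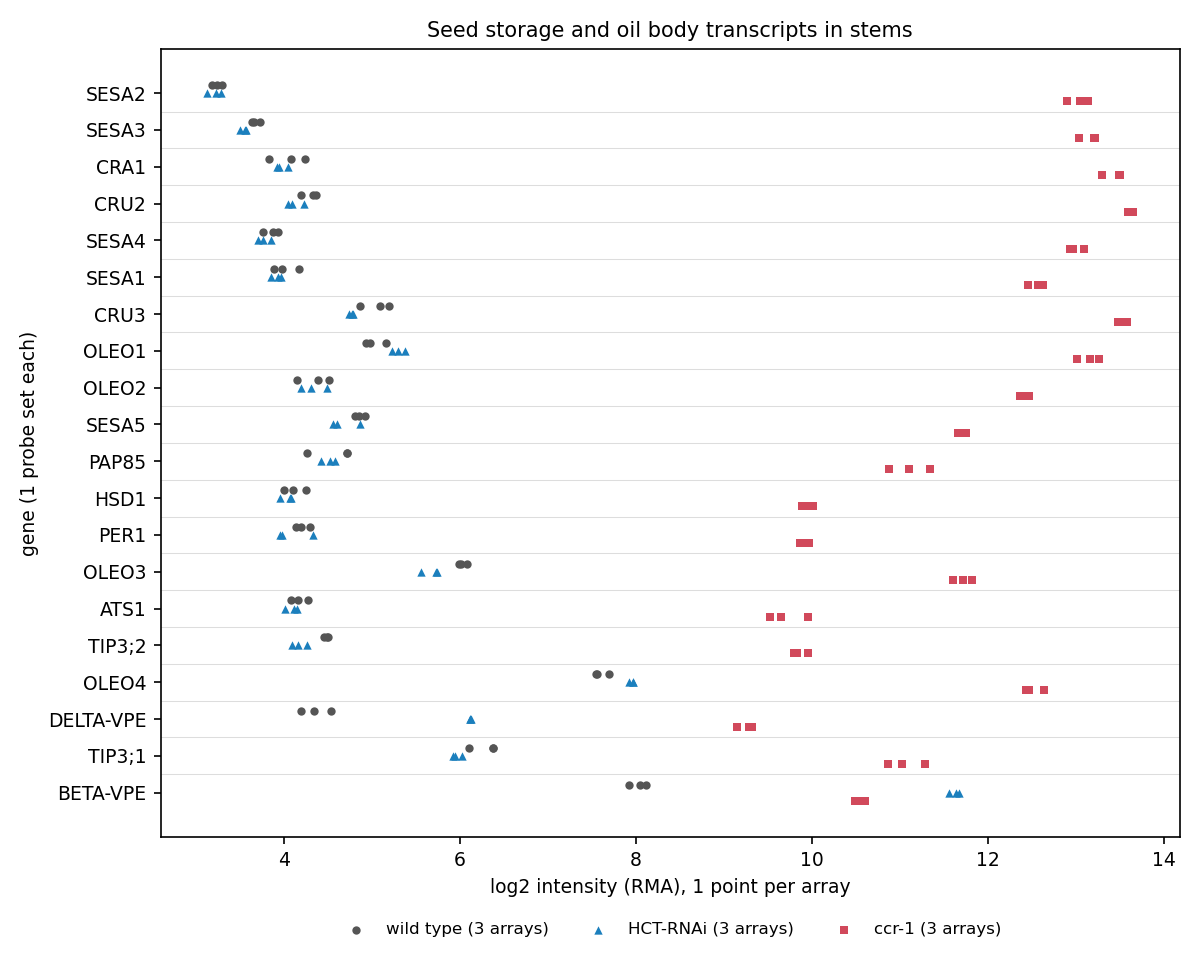
Log2 intensity on each of the 9 arrays (horizontal axis) for the 20 seed storage and oil body genes (vertical axis), with wild type as circles, HCT-RNAi as triangles and ccr-1 as squares. The ccr-1 arrays stand to the right of the wild-type arrays for every gene, and HCT-RNAi stands beyond ccr-1 for BETA-VPE alone.

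The storage genes differed between the lines as well. In the direct test of ccr-1 against HCT-RNAi, 58.9% of all probe sets were called, 25.4% higher and 33.6% lower in ccr-1. Of the calls, 43.1% were thus higher, and 53.8% were with each array centred on its median. Among genes named through the authors' table the higher share was 53.3% and the lower 37.2%, and among those named by the platform annotation 24.4% and 31.4%. The ccr-1 and HCT-RNAi arrays did not overlap in 63.0% of probe sets. A sign of RNA quality moved with this comparison: the control probe sets for the 3′ end of actin stood above those for its 5′ end by 3.86 ± 0.04 (SD, n = 3) in ccr-1, 4.36 ± 0.02 in HCT-RNAi and 3.98 ± 0.06 in wild type, and those of GAPDH by 1.61 ± 0.05, 1.78 ± 0.12 and 1.46 ± 0.06. Its part in the results was not tested. Of the 20 genes, 19 were higher in ccr-1 than in the HCT-RNAi line, by a median of 6.83, and 1 was lower. CRU2 was at 4.09, 4.22 and 4.04 in HCT-RNAi, 9.50 ± 0.07 below ccr-1. The exception was BETA-VPE (AT1G62710), the vacuolar enzyme that cuts storage proteins into their mature chains. It was at 8.04, 8.11 and 7.92 in wild type and 10.49, 10.55 and 10.61 in ccr-1, a rise of 2.53 ± 0.06, and at 11.64, 11.67 and 11.56 in HCT-RNAi, above ccr-1 (ccr-1 minus HCT-RNAi -1.07 ± 0.06, adjusted p = 2.26e-08). DELTA-VPE (AT3G20210), its relative of the inner seed coat, rose at least 29.8-fold and was 3.13 ± 0.08 higher in ccr-1 than in the HCT-RNAi line.

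Several genes outside the lists were also among the largest rises. ATS3 (AT5G07190), an embryo-specific gene, had a mean of 11.17 in ccr-1 against 4.54 in wild type and rose by 6.63 ± 0.08. AT2G28490, which encodes a cupin of the storage protein family, rose at least 84.1-fold, and AT3G01570, an oleosin family member, by 6.38 ± 0.06. CYP71B31 (AT3G53300), a cytochrome P450, was at 3.57, 3.70 and 3.47 in wild type and 10.40, 10.30 and 10.24 in ccr-1 and rose at least 107-fold. AT1G47540 rose by 6.50 ± 0.07. AT3G63040 and AT1G62070 rose at least 89.6-fold and 89-fold, and no role is given for them in the sources used here. The neighbours AT5G38160 and AT5G38170, lipid transfer protein-like genes, rose by 6.83 ± 0.08 and at least 106-fold. LTP2 (AT2G38530), a lipid transfer protein, rose by 6.41 ± 0.06. All of these were also higher in ccr-1 than in the HCT-RNAi line, by 1.31 for LTP2 and by 5.65 for AT3G01570. HCT-RNAi, compared with the same wild-type arrays, was itself higher by 5.10 for LTP2, 2.36 for AT5G38160 and 0.73 for AT3G01570. AT5G38170 had a mean of 7.68 in HCT-RNAi against 4.77 in wild type. Of the rest, AT3G63040 was called higher in HCT-RNAi than in wild type, AT2G28490 was called lower and the others were not called.

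Enzymes that supply seed oil rose with the storage proteins in part. FAE1 (AT4G34520), which elongates fatty acids in seeds, was at 4.41, 4.34 and 4.22 in wild type and 8.63, 8.72 and 8.45 in ccr-1 (change 4.28 ± 0.09, adjusted p = 1.42e-12). BCCP2 (AT5G15530), a subunit of plastid acetyl-CoA carboxylase, was at 6.53, 6.74 and 6.64 in wild type and 8.72, 8.69 and 8.63 in ccr-1 and rose by 2.05 ± 0.06. TAG1 (AT2G19450), the acyltransferase that completes triacylglycerol, rose by 1.26 ± 0.07 and lower in ccr-1 than in the HCT-RNAi line (-0.47 ± 0.07). FATB (AT1G08510), a thioesterase of general fatty acid synthesis, fell by 0.47 ± 0.08. In all, 4 of the 5 named genes were higher and 1 lower, with a median of 1.26, and of 0.030 over the 2 named by the platform annotation.

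The regulators of seed maturation had smaller changes than the storage genes. Of 24 listed genes 9 could be named, and of these 7 were higher, 1 lower and 1 not called, with a median change of 0.98. The median was 0.47 over the 4 named by the platform annotation and 0.33 over probe sets with a mean log2 intensity of at least 6. FUS3 (AT3G26790), a B3 transcription factor of embryo maturation, was at 4.85, 4.86 and 4.76 in wild type and 6.01, 5.87 and 5.91 in ccr-1 (change 1.11 ± 0.06, adjusted p = 5.27e-09). L1L (AT5G47670), a LEC1-type subunit of embryos, was at 4.83, 4.89 and 4.75 in wild type and 6.18, 7.07 and 6.69 in ccr-1, at least 3.53-fold higher, with the 3 ccr-1 arrays nearly 1 log2 unit apart. EEL (AT2G41070), a bZIP factor of late embryos, rose by 0.98 ± 0.06. DOG1 (AT5G45830), which sets seed dormancy, rose at least 2.1-fold. HCT-RNAi, compared with the same wild-type arrays, was itself higher by 0.62 for FUS3 and 0.62 for EEL, and L1L and DOG1 were not called. The list's median in HCT-RNAi was -0.12. MFT (AT1G18100), a regulator of germination that is abundant in seeds, stood out at 3.92, 3.96 and 3.93 in wild type and 8.07, 8.30 and 8.26 in ccr-1, a rise of 4.27 ± 0.07 (adjusted p = 1.16e-13), and was 3.70 ± 0.07 higher than in HCT-RNAi. VAL2 (AT4G32010), a repressor of seed maturation genes, went the other way. It was at 8.95, 8.98 and 9.11 in wild type and 7.54, 7.82 and 7.75 in ccr-1, a fall of 1.31 ± 0.07, and was lower than in HCT-RNAi too (-0.65 ± 0.07).

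Late embryogenesis abundant proteins protect drying cells, in seeds and also in stressed shoots. Of 17 named genes 13 were higher and 3 lower, with a median of 1.52. The seed-type gene AT3G15670 was at 3.76, 3.51 and 3.81 in wild type and 8.74, 8.58 and 8.42 in ccr-1 and rose at least 29.6-fold, M17 (AT2G41260) rose at least 10.7-fold, and EM6 (AT2G40170), an early methionine-labelled protein, at least 2.33-fold. LEA7 (AT1G52690) was at 5.65, 5.74 and 5.44 in wild type and 10.92, 11.03 and 10.94 in ccr-1 and rose by 5.35 ± 0.08. HCT-RNAi had LEA7 at 10.76, 10.67 and 10.66, near the ccr-1 values. Among genes known from cold and drought responses, LTI30 (AT3G50970) fell by 1.34 ± 0.08, ERD10 (AT1G20450) by 0.50 ± 0.06, whereas COR15A (AT2G42540) rose by 2.03 ± 0.06, LTI65 (AT5G52300) by 1.52 ± 0.08 and the abscisic acid-responsive RAB18 (AT5G66400) by 1.50 ± 0.06. Although above wild type, RAB18 and COR15A were lower in ccr-1 than in the HCT-RNAi line (differences of -1.09 ± 0.06 and -1.51 ± 0.06). Among 9 named genes of abscisic acid synthesis and signalling 5 were higher and 3 lower in ccr-1 than in wild type. In the direct test 7 of those 9 were lower in ccr-1 than in the HCT-RNAi line and 2 higher.

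Seed coat and endosperm genes rose in part. EPR1 (AT2G27380), an extensin-like gene of the endosperm, was at 5.67, 5.39 and 5.67 in wild type and 11.37, 11.44 and 11.12 in ccr-1 (change 5.74 ± 0.10, adjusted p = 1.76e-13). SUC5 (AT1G71890), a sucrose carrier of the endosperm, was at 5.48, 5.52 and 5.53 in wild type and 7.19, 7.21 and 7.44 in ccr-1 and rose by 1.77 ± 0.07. CWINV4 (AT2G36190), a cell wall invertase, rose by 1.85 ± 0.10. For these 3 genes HCT-RNAi stood near wild type, at mean levels of 5.26, 5.55 and 4.89. IKU2 (AT3G19700) and AGL62 (AT5G60440), which act in early endosperm, were not called, at 0.05 ± 0.09 and -0.22 ± 0.11. These last are the list's 2 members named by the platform annotation, with a median of -0.087, while the list's 5 named members had a median of 1.77, and of 3.76 where only probe sets with a mean log2 intensity of at least 6 were kept. TT10 (AT5G48100), a laccase that browns the seed coat, was at 4.92, 4.63 and 4.68 in wild type and 8.32, 8.41 and 8.53 in ccr-1 and rose by 3.68 ± 0.09 (adjusted p = 5.56e-12). Other seed coat genes changed less: COBL2 (AT3G29810), which acts in seed coat mucilage, rose by 0.80 ± 0.06, BAN (AT1G61720), an enzyme of tannin synthesis, by 0.63 ± 0.10, and FLY1 (AT4G28370), a ubiquitin ligase of mucilage, fell by 0.99 ± 0.06. Of 10 named seed coat genes 8 were higher, 2 of them by at least 2-fold, and 1 lower, with a median of 0.72. TT8 (AT4G09820), a regulator of tannins and anthocyanins, was called present on 1 ccr-1 array and no wild-type array. It was at least 1.94-fold higher in ccr-1 than in wild type and stood below HCT-RNAi (difference -2.17 ± 0.07).

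Floral identity genes formed the next group. Of 14 named regulators of floral organs and flowering 10 were higher, 2 lower and 2 not called, 9 of them by at least 2-fold upward, with a median of 2.69. The 3 named by the platform annotation, UFO, AGL24 and FD, had a median of -0.19 with none called higher. The list's summed linear intensity was 1731 to 1794 in wild type and 6081 to 6350 in ccr-1. SEP2 (AT3G02310), a MADS-box partner of all floral organ factors, was at 5.07, 4.72 and 4.55 in wild type and 9.73, 9.86 and 9.66 in ccr-1 (change 4.97 ± 0.11, adjusted p = 1.42e-12). AP3 (AT3G54340), of petals and stamens, was at 4.46, 3.88 and 4.17 in wild type and 7.78, 7.96 and 7.89 in ccr-1, at least 13.1-fold higher. Its partner PI (AT5G20240) rose by 3.22 ± 0.05, AP1 (AT1G69120), of sepals and petals, by 3.05 ± 0.06, and AG (AT4G18960), of stamens and carpels, by 2.45 ± 0.10. Each of these genes was also higher in ccr-1 than in the HCT-RNAi line, by 1.65, 1.37, 2.08, 1.07 and 1.49. HCT-RNAi, compared with the same wild-type arrays, was itself higher by 3.32 for SEP2, 1.14 for PI, 1.98 for AP1 and 0.96 for AG. AP3, called present on no wild-type array, had a mean of 6.50 in HCT-RNAi against 4.17 in wild type. The list's median change in HCT-RNAi was 1.29. Of the 14 genes, 9 were higher in ccr-1 than in the HCT-RNAi line, 2 lower and 3 not called.

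The genes of flowering time moved apart. FT (AT1G65480), the mobile signal that induces flowering, was at 7.71, 7.51 and 7.68 in wild type and 10.53, 10.59 and 10.58 in ccr-1 and rose by 2.93 ± 0.06 (adjusted p = 1.99e-12), 1.03 ± 0.06 above HCT-RNAi. AGL24 (AT4G24540), a promoter of flowering in the inflorescence meristem, was at 8.05, 8.05 and 8.09 in wild type and 6.31, 6.29 and 6.35 in ccr-1 and fell by 1.75 ± 0.06, and was lower than in HCT-RNAi as well (-1.03 ± 0.06). FLC (AT5G10140), a repressor of flowering, fell by 0.95 ± 0.09. In neither AGL24 nor FLC did the ccr-1 and wild-type arrays overlap. UFO (AT1G30950) and FD (AT4G35900), which act in meristems, were not called, at -0.04 ± 0.07 and -0.19 ± 0.10.

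Carpel and fruit genes rose in 9 of 10 named members, with a median of 2.30 and summed linear intensities of 316 to 359 in wild type and 2663 to 2785 in ccr-1. STK (AT4G09960), of ovules, was at 3.69, 3.80 and 3.54 in wild type and 6.88, 6.41 and 6.72 in ccr-1, at least 7.97-fold higher (adjusted p = 2.35e-10). SHP2 (AT2G42830), of carpels and the margins of fruit valves, was at 5.39, 5.47 and 5.49 in wild type and 8.07, 8.09 and 8.11 in ccr-1, at least 6.26-fold higher. ALC (AT5G67110), which acts in fruit opening, was at 5.49, 5.43 and 5.34 in wild type and 9.24, 9.34 and 9.18 in ccr-1 and rose by 3.83 ± 0.06. HCT-RNAi, compared with the same wild-type arrays, had a list median of 1.24 and a rise of 3.49 in ALC. Its summed linear intensities were 1688 to 1708. In the direct test 6 of the 10 were higher in ccr-1 than in the HCT-RNAi line, 2 lower and 2 not called, with a median difference of 0.34. STK and SHP2 were 2.34 ± 0.11 and 1.78 ± 0.06 higher in ccr-1 and ALC 0.34 ± 0.06. YAB1 (AT2G45190), of the lower side of organs, was lower (-0.32 ± 0.06). INO (AT1G23420), an ovule gene, rose by 0.29 ± 0.09, a call lost without the wild-type replicate numbered 7 (0.23) or 9 (0.24). SPL (AT4G27330), of sporogenous tissue, was not called.

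Anther and pollen genes rose in 13 of 15 named members, with a median of 1.63, and of 0.31 over the 5 named by the platform annotation. TPS21 (AT5G23960), a sesquiterpene synthase of flowers, was at 3.80, 3.92 and 3.99 in wild type and 6.87, 6.99 and 5.73 in ccr-1, at least 6.17-fold higher (adjusted p = 1.1e-06), with 1 ccr-1 array more than 1 log2 unit below the others. MYB21 (AT3G27810), a jasmonate-regulated factor of stamens, was at 3.55, 3.42 and 3.45 in wild type and 5.17, 5.24 and 4.90 in ccr-1 and rose by 1.63 ± 0.08. AGP6 (AT5G14380), an arabinogalactan protein of pollen, was at 7.29, 7.09 and 7.22 in wild type and 8.96, 9.02 and 8.97 in ccr-1 and rose by 1.78 ± 0.06. GRP17 (AT5G07530), an oleosin of the pollen coat, was at 6.22, 6.07 and 6.28 in wild type and 7.88, 8.62 and 8.11 in ccr-1 and EXL6 (AT1G75930), a pollen coat lipase, at 4.40, 4.40 and 4.73 in wild type and 6.28, 6.79 and 5.79 in ccr-1. In both, the replicate numbered 5 was the highest ccr-1 array and the groups did not overlap. AMS (AT2G16910), of the tapetum, was not called. For the list as a whole the per-array median ran from 1.44 to 1.77 over the ccr-1 arrays. In the direct test 11 of 15 were higher in ccr-1 than in the HCT-RNAi line, 1 lower and 3 not called. Adding 32 to each linear intensity before the logarithm, which damps changes of dim probe sets, lowered the medians of the floral list to 1.74, of the late embryogenesis list to 0.999, of the endosperm list to 1.18 and of the anther and pollen list to 0.96. The genes of seeds, flowers, fruits and pollen moved on the same arrays as the senescence, wall and defence genes described next. Their part in those results was not tested.

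**Figure D3:**
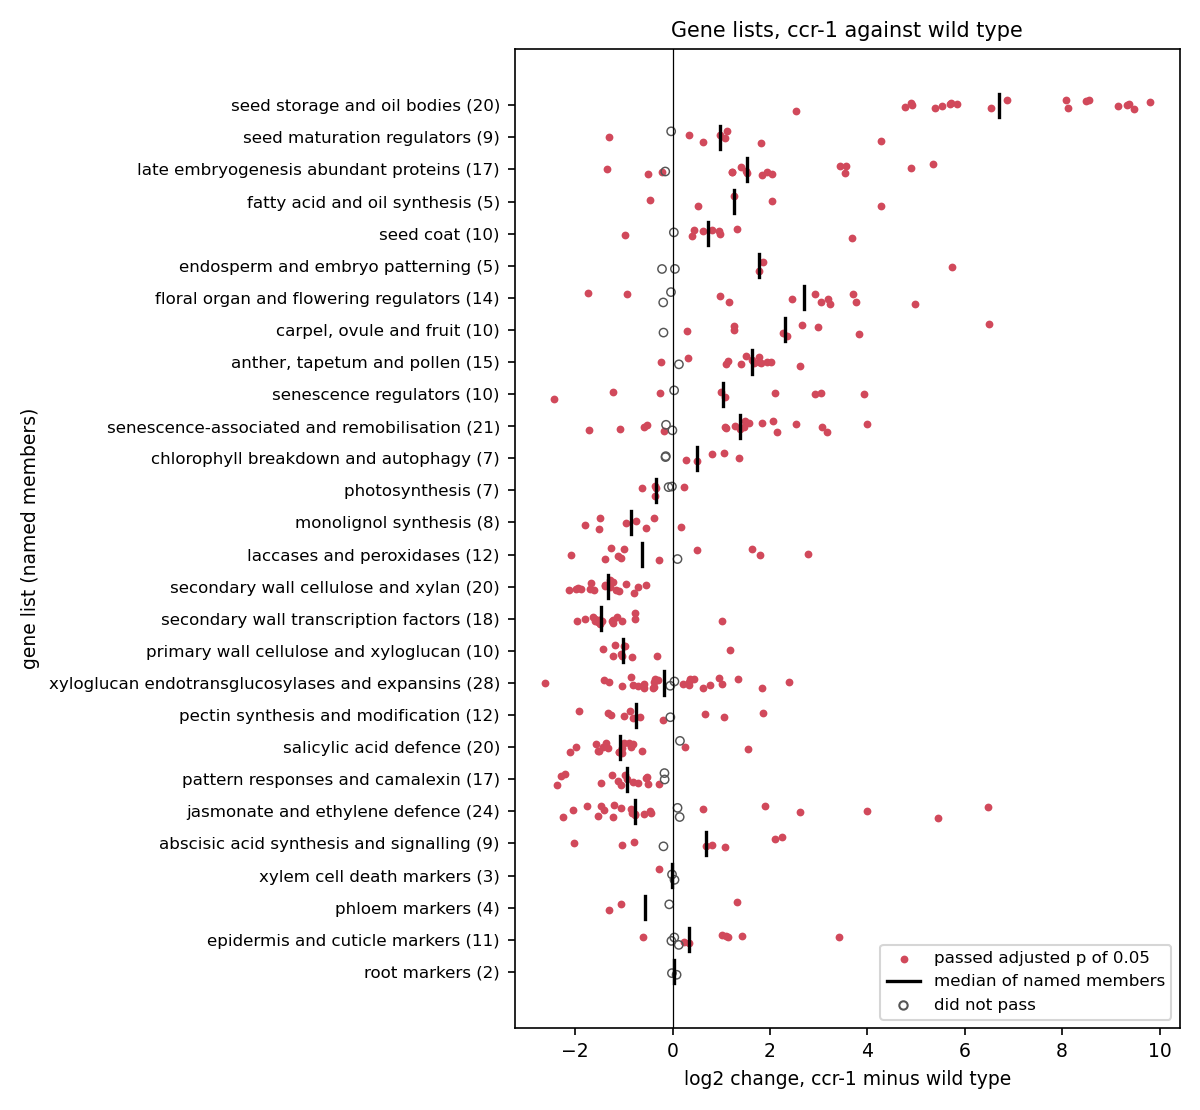
Log2 change, ccr-1 minus wild type (horizontal axis), of each named gene in 28 lists (vertical axis, with the number of named members). Filled points passed the adjusted p of 0.05, open points did not, and black bars are medians, which run from -1.48 for secondary wall transcription factors to 6.70 for seed storage and oil bodies.

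Genes of senescence and nutrient export rose in large part. Of 21 named senescence-associated genes 14 were higher, all 14 by at least 2-fold, 5 lower and 2 not called, with a median of 1.39. Over the 8 named by the platform annotation, 3 of them higher and 3 lower, the median was -0.071. The list's summed linear intensity was 16966 to 17444 in wild type and 17948 to 18818 in ccr-1, ranges that did not overlap. SAG12 (AT5G45890), a cysteine protease of senescing tissue, was at 7.05, 6.72 and 7.05 in wild type and 9.04, 9.12 and 8.88 in ccr-1 (change 2.07 ± 0.09, adjusted p = 1.31e-09). RNS1 (AT2G02990), a secreted ribonuclease, was at 4.91, 5.30 and 4.95 in wild type and 9.13, 9.00 and 9.02 in ccr-1, at least 16-fold higher. SAG29 (AT5G13170), a sugar carrier of the SWEET family, was at 7.49, 7.25 and 7.19 in wild type and 10.51, 10.44 and 10.46 in ccr-1 and rose by 3.16 ± 0.07. The groups did not overlap for any of these 3 genes.

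CEP1 (AT5G50260), a protease of tissues undergoing programmed death, was at 6.64, 6.42 and 6.62 in wild type and 9.67, 9.55 and 9.65 in ccr-1 and rose by 3.07 ± 0.07. BFN1 (AT1G11190), a nuclease of senescence and xylem death, was at 7.72, 7.80 and 8.00 in wild type and 8.94, 9.00 and 8.89 in ccr-1 and rose by 1.11 ± 0.07. ALPHA-VPE (AT2G25940), a vacuolar processing enzyme of vegetative organs, was at 6.28, 6.44 and 6.35 in wild type and 7.82, 7.86 and 7.84 in ccr-1 and rose by 1.48 ± 0.07. These proteins break down cell contents. Carriers that export nutrients from old organs rose too: NRT1.7 (AT1G69870), for nitrate, by 2.52 ± 0.06, and YSL1 (AT4G24120) and YSL3 (AT5G53550), for metal complexes, by 1.84 ± 0.07 and 1.46 ± 0.07. ICL (AT3G21720), of the glyoxylate cycle, rose by 1.57 ± 0.08, and MLS (AT5G03860), its partner, at least 2.44-fold.

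Not all members followed. GLN1;4 (AT5G16570), a cytosolic glutamine synthetase, was at 10.22, 10.34 and 10.35 in wild type and 8.66, 8.50 and 8.57 in ccr-1 and fell by 1.73 ± 0.06. BCB (AT5G20230), a blue copper protein, fell by 1.08 ± 0.06, and GAMMA-VPE (AT4G32940), a vacuolar processing enzyme, by 0.52 ± 0.06. PPDK (AT4G15530), of pyruvate metabolism, and TET9 (AT4G30430), a tetraspanin, were not called, at -0.01 ± 0.06 and -0.14 ± 0.09. In chlorophyll breakdown and autophagy 5 of 7 named genes were higher and 2 not called: CLH1 (AT1G19670), a chlorophyllase, rose by 1.06 ± 0.06 and ATG8B (AT4G04620), of autophagosomes, by 1.36 ± 0.07. Of 7 photosynthesis genes 1 was higher and 4 were lower, with a median of -0.34, and of -0.21 over the 6 named by the platform annotation.

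Among the regulators of senescence 6 of 10 named genes were higher, 3 lower and 1 not called, with a median of 1.03. The 3 named by the platform annotation, WRKY53, WRKY6 and WRKY22, were the 3 that were lower, with a median of -1.22. With the same limit on mean intensity as above the list's median was 2.11. Most are NAC or WRKY transcription factors. ORE1 (AT5G39610), a NAC factor that promotes senescence, was at 5.28, 5.37 and 5.34 in wild type and 8.23, 8.34 and 8.19 in ccr-1 (change 2.93 ± 0.06, adjusted p = 5.97e-13). NAC019 (AT1G52890) was at 7.09, 6.80 and 6.74 in wild type and 9.92, 10.00 and 9.83 in ccr-1 and rose by 3.04 ± 0.09, NAC055 (AT3G15500) by 2.11 ± 0.08 and ATAF1 (AT1G01720) by 1.08 ± 0.07. HAI1 (AT5G59220), a phosphatase of abscisic acid signalling that is also senescence-associated, was at 7.45, 7.32 and 7.39 in wild type and 11.35, 11.28 and 11.35 in ccr-1 and rose by 3.94 ± 0.06. WRKY53 (AT4G23810), a regulator of early senescence that is also induced in defence, was at 7.86, 7.59 and 7.54 in wild type and 5.23, 5.27 and 5.20 in ccr-1 and fell by 2.43 ± 0.09. WRKY22 (AT4G01250) fell by 1.22 ± 0.11, WRKY6 (AT1G62300) by 0.26 ± 0.08, a call lost without the ccr-1 replicate numbered 6 (-0.22) or the wild-type replicate numbered 7 (-0.22), and WRKY75 (AT5G13080) rose at least 1.98-fold. ORS1 (AT3G29035), a relative of ORE1, was not called (0.03 ± 0.09).

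Senescence genes were also set against HCT-RNAi. Of the 21 genes 12 were higher in ccr-1, 5 lower and 4 not called, with a median difference of 0.75. Of the 10 regulators 6 were higher and 4 not called. Among all genes named through the authors' table, which named 13 of the 21 and 7 of the 10, 53.3% were higher and 37.2% lower. Among those named by the platform annotation the shares were 24.4% and 31.4%, so the number called says little about these lists. RNS1 was 2.29 ± 0.09 higher in ccr-1 (adjusted p = 4.95e-10), ALPHA-VPE 2.08 ± 0.07, CEP1 1.69 ± 0.07, ORE1 1.56 ± 0.06, YSL3 1.53 ± 0.07 and SAG12 1.25 ± 0.09. HCT-RNAi, compared with the same wild-type arrays, had a median of 0.79 for the regulators and -0.05 for the senescence-associated list. It was itself higher by 2.54 for HAI1, 2.43 for NAC019, 2.03 for SAG29, 1.37 for ORE1 and 1.23 for ATAF1. For WRKY53 and ORS1 it changed by -2.73 and -1.50. SEN1 (AT4G35770), which is induced in darkness and senescence, was at 7.01, 6.89 and 6.79 in wild type and 8.36, 8.28 and 8.20 in ccr-1, and at 6.12, 5.68 and 5.70 in HCT-RNAi, so that ccr-1 stood above and HCT-RNAi below wild type. The difference between the lines was 2.45 ± 0.11 (adjusted p = 1.32e-09). SAG13 (AT2G29350) and GLN1;4 were lower in ccr-1 than in the HCT-RNAi line (differences of -0.69 ± 0.07 and -1.14 ± 0.06). NRT1.7 and YSL1 were not called between the lines, with differences of -0.14 ± 0.06 and -0.11 ± 0.07.

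The walls of lignified cells were represented by genes that fell together. The 20 named genes of the secondary wall cellulose and xylan list, which also holds a glucomannan synthase, were each lower in ccr-1. Of these 16 fell by at least 2-fold. Changes of the 20 ran from -0.56 to -2.13 with a median of -1.32 (17 named through the authors' table). Their summed linear intensity was 79756 to 85000 in wild type and 31492 to 31993 in ccr-1. The furthest fall was in CSLA09 (AT5G03760), a glucomannan synthase, at 12.26, 12.17 and 12.38 in wild type and 10.12, 10.31 and 9.98 in ccr-1 (-2.13 ± 0.10, adjusted p = 1.49e-09). CESA7 (AT5G17420), a subunit of the secondary wall cellulose synthase, was at 11.95, 11.96 and 11.97 in wild type and 9.84, 10.02 and 10.07 in ccr-1 and fell by 1.99 ± 0.07. GUX1 (AT3G18660), which decorates xylan with glucuronic acid, had a mean of 9.11 in ccr-1 against 11.06 in wild type and fell by 1.94 ± 0.07. The smallest fall was in TED6 (AT1G43790), a protein of xylem cellulose deposition, by 0.56 ± 0.05. In the direct test 8 of the 20 were higher in ccr-1 than in the HCT-RNAi line, 3 lower and 9 not called, with a median difference of -0.02.

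Of 18 named transcription factors of the secondary wall 17 were lower, 15 by at least 2-fold. NST2 (AT3G61910), a NAC switch of wall thickening, was at 8.46, 8.43 and 8.24 in wild type and 6.38, 6.42 and 6.48 in ccr-1 and fell by 1.96 ± 0.06. NST1 (AT2G46770), its close relative of fibres, was at 7.99, 7.95 and 7.91 in wild type and 6.20, 6.29 and 6.88 in ccr-1 and fell by 1.50 ± 0.14, and was lower than in HCT-RNAi (-0.84 ± 0.14). MYB46 (AT5G12870), the next tier of the cascade, fell by 1.46 ± 0.07. XND1 (AT5G64530), a NAC factor that restrains xylem differentiation, was the exception, at 6.38, 6.14 and 6.24 in wild type and 7.26, 7.19 and 7.32 in ccr-1, a rise of 1.00 ± 0.07. MYB4 (AT4G38620), a repressor of phenylpropanoid genes, was at 7.84, 7.76 and 7.86 in wild type and 7.21, 7.12 and 6.79 in ccr-1 and fell by 0.78 ± 0.09, while HCT-RNAi had it at 8.40, 8.37 and 8.37. The difference between the lines was -1.34 ± 0.09 (adjusted p = 7.41e-08). NST1 and MYB4 do not stand for the list in this respect. Between the lines, 9 of the 18 factors were higher in ccr-1, 4 lower and 5 not called, and the median difference was 0.15. The fall from wild type was shared, as the factors had a median change of -1.48 in ccr-1 and -1.55 in HCT-RNAi.

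Monolignol genes were lower in 7 of 8 named members, with a median of -0.85. The 2 named by the platform annotation, HCT and CCR2, had a median of -0.19. The list's median in HCT-RNAi, whose target HCT is a member, was -1.14 against the same wild-type arrays. Between the lines, 5 of the 8 were higher in ccr-1 and 3 lower. FAH1 (AT4G36220), the hydroxylase of syringyl lignin, was at 9.84, 9.76 and 9.96 in wild type and 8.41, 8.37 and 8.23 in ccr-1 and fell by 1.52 ± 0.07. CAD4 (AT3G19450), the last step to the alcohols, fell by 1.49 ± 0.07, and PAL4 (AT3G10340), at the pathway's entry, by 0.96 ± 0.08. CCR2 (AT1G80820), the other cinnamoyl-CoA reductase gene, was at 7.81, 7.88 and 7.78 in wild type and 8.01, 8.01 and 7.97 in ccr-1, a rise of 0.17 ± 0.05 (adjusted p = 0.014), a call lost without the wild-type replicate numbered 9 (0.15). The laccases and peroxidases that couple monolignols moved both ways, with 4 of 12 higher and 7 lower and a median of -0.64. Over the 6 named by the platform annotation, all peroxidases, the median was 0.86, and with the limit on mean intensity it was -0.997. HCT-RNAi had a list median of -0.98 against the same wild-type arrays. Between the lines, 9 of the 12 were higher in ccr-1, 0 lower and 3 not called. LAC4 (AT2G38080), a main laccase of stem lignification, was at 12.37, 12.31 and 12.19 in wild type and 10.28, 10.14 and 10.17 in ccr-1 and fell by 2.09 ± 0.06. The peroxidase gene AT5G51890 was at 7.32, 7.35 and 7.52 in wild type and 10.14, 10.22 and 10.17 in ccr-1 and rose by 2.78 ± 0.07, PRX52 (AT5G05340) by 1.79 ± 0.08 and PRX25 (AT2G41480) by 1.63 ± 0.05.

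Among genes that act on growing walls, those of primary wall cellulose and xyloglucan were mostly lower, 9 of 10 named genes with a median of -1.02. Their median in HCT-RNAi against the same wild-type arrays was -1.10. CESA2 (AT4G39350) fell by 1.43 ± 0.08 and CESA3 (AT5G05170) by 1.06 ± 0.06. XYL1 (AT1G68560), a xylosidase that trims xyloglucan, rose by 1.19 ± 0.06. Of 28 named genes for expansins and xyloglucan endotransglucosylases, which loosen and rejoin the wall, 12 were higher, 14 lower and 2 not called. Their median change was -0.17, -0.30 over probe sets with a mean log2 intensity of at least 6 and -0.050 over the 15 named by the platform annotation. EXPA8 (AT2G40610) was at 8.29, 8.35 and 8.22 in wild type and 10.04, 10.12 and 10.18 in ccr-1 and rose by 1.82 ± 0.07 (adjusted p = 3.42e-10). XTH25 (AT5G57550) was at 5.15, 5.47 and 5.01 in wild type and 7.56, 7.48 and 7.76 in ccr-1 and rose by 2.39 ± 0.10. XTH18 (AT4G30280) was at 9.19, 9.11 and 9.13 in wild type and 6.56, 6.55 and 6.43 in ccr-1 and fell by 2.63 ± 0.09. The other expansins that rose by at least 2-fold were EXPA3 (AT2G37640), by 1.35 ± 0.07, and EXPA1 (AT1G69530), by 1.02 ± 0.07.

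Here the lines stood apart in most genes. Of the 28 genes 21 were higher in ccr-1 than in the HCT-RNAi line, 5 lower and 2 not called, with a median difference of 1.35. EXPA8 was at 6.58, 6.69 and 6.82 in HCT-RNAi, below wild type, where ccr-1 was above it, and the difference between the lines was 3.41 ± 0.07 (adjusted p = 1.51e-12). XTH31 (AT3G44990) was at 7.96, 7.89 and 7.83 in wild type and 7.45, 7.39 and 7.63 in ccr-1 and at 11.47, 11.46 and 11.30 in HCT-RNAi, a difference of -3.92 ± 0.07 (adjusted p = 8.01e-13). XTH19 (AT4G30290) rose by 0.34 ± 0.09 and was 3.14 ± 0.09 higher than in HCT-RNAi. Pectin and side-chain genes followed, with 3 of 12 higher and 8 lower than in wild type, and 10 higher and 2 lower than in HCT-RNAi. BXL1 (AT5G49360), a glycosidase that removes arabinose and xylose from wall side chains, was at 12.33, 12.31 and 12.28 in wild type and 12.03, 12.10 and 12.20 in ccr-1, a fall of 0.20 ± 0.07 (adjusted p = 0.023), and 3.05 ± 0.07 above HCT-RNAi. The call against wild type was lost without the ccr-1 replicate numbered 4 (-0.16) or 5 (-0.19) or the wild-type replicate numbered 7 (-0.19) or 8 (-0.19). BXL2 (AT1G02640) fell by 1.91 ± 0.07 and was 2.81 ± 0.07 above HCT-RNAi. The polygalacturonase gene AT1G48100 rose by 1.86 ± 0.05 and PGIP2 (AT5G06870), an inhibitor of polygalacturonases, fell by 1.26 ± 0.07.

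**Figure D4:**
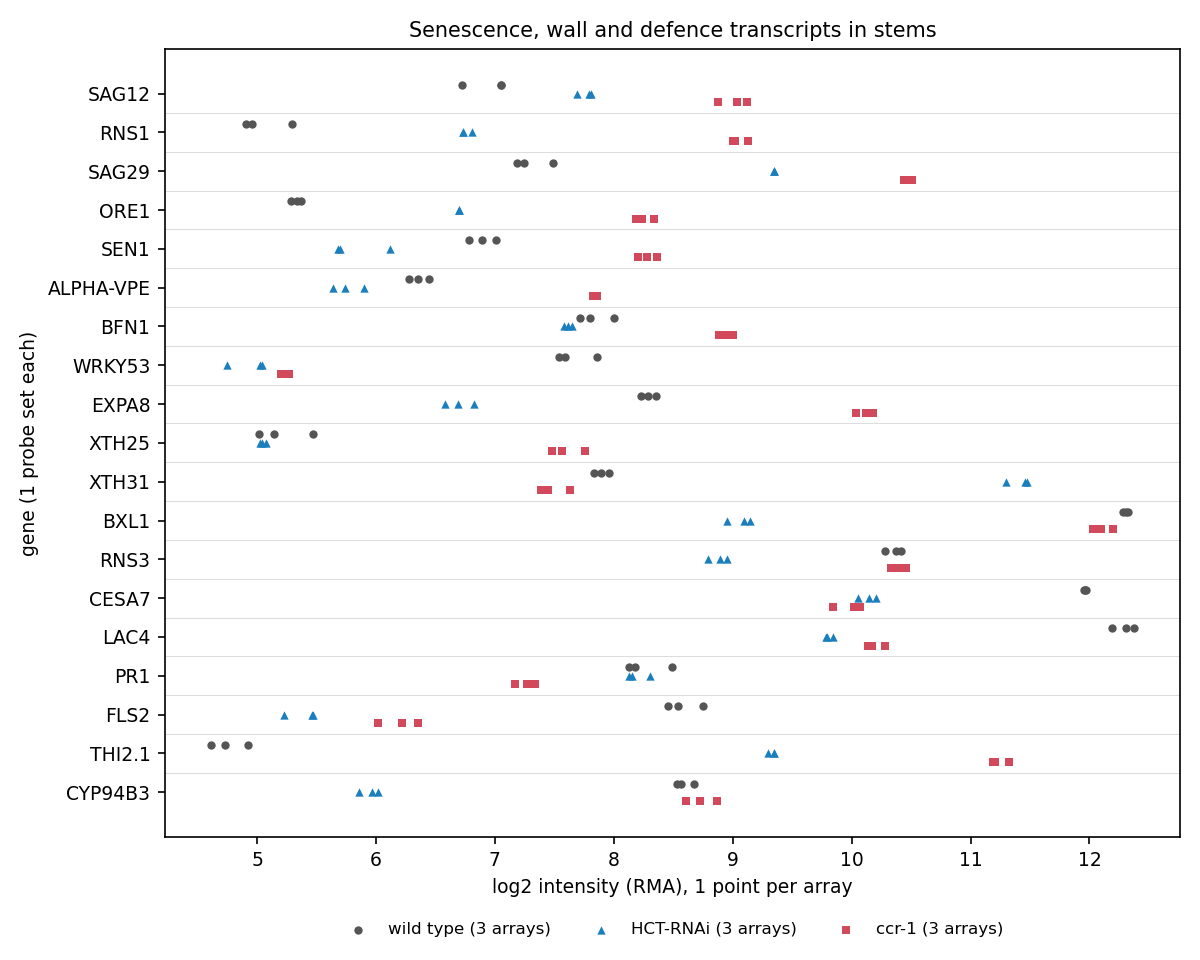
Log2 intensity on each of the 9 arrays (horizontal axis) for 19 senescence, wall and defence genes (vertical axis), with wild type as circles, HCT-RNAi as triangles and ccr-1 as squares. Squares lie to the right of circles for SAG12, RNS1, ORE1 and EXPA8, to the left for CESA7, LAC4, PR1 and FLS2, and among them for RNS3.

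Markers of other stem cell types moved less uniformly than the wall genes. RNS3 (AT1G26820), a ribonuclease of xylem cells, was at 10.28, 10.37 and 10.42 in wild type and 10.33, 10.39 and 10.46 in ccr-1 and was not called (0.04 ± 0.06). MC9 (AT5G04200), a metacaspase of xylem cell clearance, was not called either (-0.01 ± 0.06), and XCP1 (AT4G35350), a xylem protease, fell by 0.27 ± 0.06. All 3 were higher in ccr-1 than in the HCT-RNAi line, by 1.51, 1.41 and 0.83. Of 11 epidermis and cuticle genes 7 were higher and 1 lower, with a median of 0.34, and the single one named by the platform annotation changed by 1.02. PDF1 (AT2G42840), of the outermost cell layer, was at 6.59, 6.28 and 6.34 in wild type and 9.90, 9.78 and 9.75 in ccr-1 and rose by 3.41 ± 0.08. The wax enzymes CER4 (AT4G33790), CER3 (AT5G57800) and KCS1 (AT1G01120) were not called, at 0.12 ± 0.06, -0.03 ± 0.06 and 0.03 ± 0.07, and MAH1 (AT1G57750), another wax enzyme, fell by 0.61 ± 0.05. These 4 were higher in ccr-1 than in the HCT-RNAi line, by 1.84, 1.07, 1.76 and 2.13. Phloem markers were mixed, with a median of -0.56 over 4 genes, of which the platform annotation named SWEET11 alone: the sieve element genes SEOA (AT3G01670) and SEOB (AT3G01680) fell by 1.30 ± 0.06 and 1.05 ± 0.06, and SWEET11 (AT3G48740), which exports sucrose towards the phloem, rose by 1.32 ± 0.06.

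Defence genes of the salicylic acid branch were mostly lower. Of 20 named genes 17 were lower, 13 by at least 2-fold, 2 higher and 1 not called, with a median of -1.08 (17 named through the authors' table). PR1 (AT2G14610), a standard marker of salicylic acid responses, was at 8.49, 8.18 and 8.13 in wild type and 7.34, 7.27 and 7.17 in ccr-1 (a fall of 1.01 ± 0.09, adjusted p = 1.06e-06). PR5 (AT1G75040), a thaumatin-like protein, was at 9.89, 9.95 and 9.95 in wild type and 7.79, 7.98 and 8.05 in ccr-1 and fell by 1.99 ± 0.07. WRKY54 (AT2G40750), which acts downstream of salicylic acid, was at 6.73, 6.52 and 6.37 in wild type and 4.21, 4.59 and 4.52 in ccr-1 and was called present on none of the ccr-1 arrays, at least 4.3-fold lower. In the direct test 9 of the 20 were higher in ccr-1 than in the HCT-RNAi line, 6 lower and 5 not called. The median difference was 0.10, and the list's median in HCT-RNAi against the same wild-type arrays was -1.26. Among the lower ones were PR1 and PR2 (AT3G57260), a glucanase (differences of -0.94 ± 0.09 and -0.88 ± 0.10). ICS1 (AT1G74710), which makes salicylic acid, was not called against wild type (0.15 ± 0.10) and was lower than in HCT-RNAi (-1.16 ± 0.10). DIR1 (AT5G48485), a lipid transfer protein of systemic resistance, was at 9.32, 9.11 and 9.21 in wild type and 10.87, 10.67 and 10.70 in ccr-1 and rose by 1.54 ± 0.08.

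Pattern-triggered responses detect microbial molecules at the cell surface. Of 17 named genes 15 were lower and 2 not called, with a median of -0.94, and of -0.29 over the 5 named by the platform annotation. The list's median in HCT-RNAi against the same wild-type arrays was -1.07. FLS2 (AT5G46330), the flagellin receptor, was at 8.54, 8.45 and 8.75 in wild type and 6.02, 6.22 and 6.35 in ccr-1 and fell by 2.38 ± 0.10 (adjusted p = 8.21e-10). WRKY40 (AT1G80840) and WRKY18 (AT4G31800), which are induced early in these responses, fell by 2.29 ± 0.08 and 2.22 ± 0.08. SOBIR1 (AT2G31880), a co-receptor kinase, fell by 1.47 ± 0.05, RBOHD (AT5G47910), the oxidase of the oxidative burst, by 1.12 ± 0.06 and MPK3 (AT3G45640), a signalling kinase, by 1.05 ± 0.05. RBOHD was lower in ccr-1 than in the HCT-RNAi line as well (-0.59 ± 0.06), whereas FLS2 and WRKY40 were higher (0.81 ± 0.10 and 1.25 ± 0.08). BIK1 (AT2G39660) and PUB22 (AT3G52450) were not called against wild type.

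The jasmonate and ethylene list was divided. Of 24 named genes 6 were higher and 16 lower, with a median of -0.77. The 3 named by the platform annotation, JMT, PDF1.2 and THI2.1, had a median of 2.62. THI2.1 (AT1G72260), a thionin, was at 4.73, 4.92 and 4.61 in wild type and 11.21, 11.19 and 11.33 in ccr-1 and rose by 6.48 ± 0.08 (adjusted p = 5.39e-15). CORI3 (AT4G23600), a coronatine-induced gene, was at 4.57, 4.93 and 5.06 in wild type and 10.30, 10.30 and 10.30 in ccr-1 and rose by 5.45 ± 0.10, LOX2 (AT3G45140), a plastid lipoxygenase, by 4.00 ± 0.07, JMT (AT1G19640), which methylates jasmonate, by 2.62 ± 0.08, and PR3 (AT3G12500), a chitinase, by 1.91 ± 0.05. JAZ repressors, themselves induced by jasmonate, were lower, JAZ7 (AT2G34600) by 1.77 ± 0.08 and JAZ5 (AT1G17380) by 1.53 ± 0.07. TAT3 (AT2G24850), a wound-induced aminotransferase, was at 7.36, 7.41 and 7.59 in wild type and 4.94, 5.14 and 5.53 in ccr-1 and fell by 2.25 ± 0.13. ORA59 (AT1G06160), an activator of the ethylene branch, fell by 2.04 ± 0.11.

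Against HCT-RNAi 17 of these 24 genes were higher in ccr-1, 5 lower and 2 not called. CYP94B3 (AT3G48520), which inactivates the jasmonate hormone, was at 8.68, 8.57 and 8.53 in wild type and 8.61, 8.87 and 8.73 in ccr-1, not called against wild type (0.14 ± 0.08), and 2.79 ± 0.08 above HCT-RNAi (adjusted p = 1.72e-11). JAZ7 was 2.74 ± 0.08 and THI2.1 1.91 ± 0.08 above HCT-RNAi. CORI3 and TAT3 were below it (differences of -1.93 ± 0.10 and -1.18 ± 0.13). NATA1 (AT2G39030), an acetyltransferase induced by jasmonate, was at 6.10, 6.11 and 5.96 in wild type and 6.61, 6.74 and 6.68 in ccr-1 and at 10.09, 10.00 and 10.08 in HCT-RNAi, a difference of -3.38 ± 0.06.

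**Figure D5:**
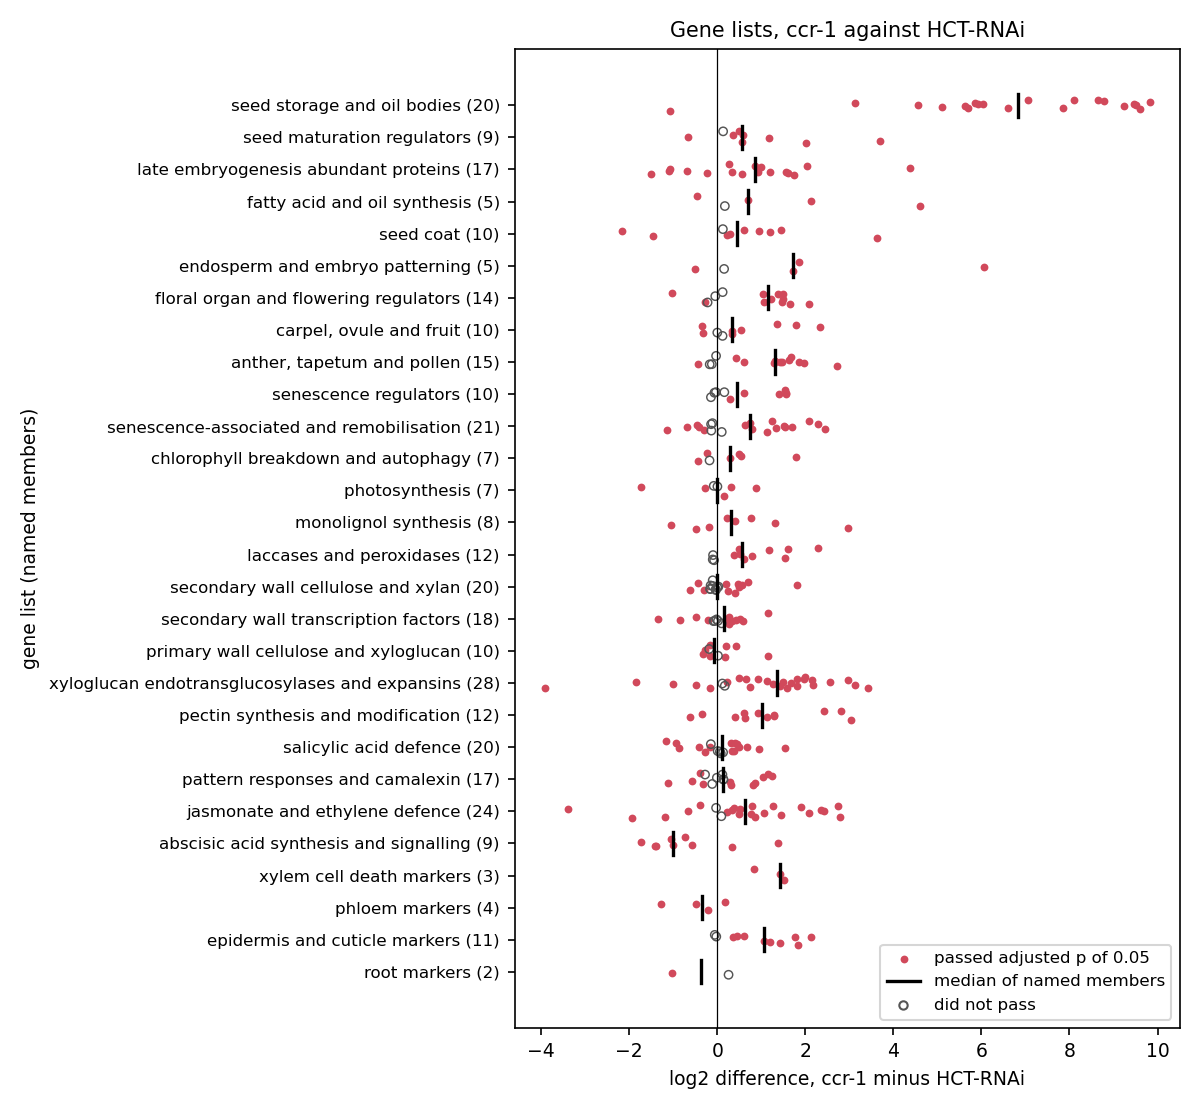
Log2 difference, ccr-1 minus HCT-RNAi (horizontal axis), of each named gene in 28 lists (vertical axis, with the number of named members). Filled points passed the adjusted p of 0.05, open points did not, and black bars are medians, at 6.83 for seed storage and oil bodies, 1.35 for xyloglucan endotransglucosylases and expansins and -0.999 for abscisic acid synthesis and signalling.

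The largest falls lay mostly outside the lists, which hold 3 of the 25. AT4G03156 was at 7.44, 7.50 and 7.65 in wild type and 3.44, 3.29 and 3.51 in ccr-1 and fell at least 15.8-fold, and no role is given for it in the sources used here. FAR6 (AT3G56700), a fatty acyl reductase family member, was at 7.60, 7.55 and 7.45 in wild type and 4.10, 4.00 and 4.00 in ccr-1 and fell at least 11.3-fold. XBAT34 (AT4G14365), a protein with a RING domain and ankyrin repeats, was at 10.18, 10.00 and 10.14 in wild type and 6.87, 6.91 and 6.87 in ccr-1 and fell by 3.23 ± 0.06. RAV1 (AT1G13260), a growth-restraining transcription factor, fell by 3.08 ± 0.14, BT5 (AT4G37610), a BTB and TAZ domain protein, by 3.04 ± 0.09, and RXF12 (AT1G58370), a xylanase family gene, by 2.72 ± 0.08. These genes were picked among those whose ccr-1 and wild-type groups do not overlap, so the lack of overlap is no separate result. HCT-RNAi, compared with the same wild-type arrays, changed by -3.87 for XBAT34, -4.82 for BT5 (called present there on 1 array) and -2.79 for RXF12. In the direct test BT5 and XBAT34 were above HCT-RNAi (by 1.78 and 0.64) and RXF12 was not called (0.07 ± 0.08). RAV1 was called present on none of the HCT-RNAi arrays and was at least 3.29-fold higher in ccr-1. AT4G03156 had a mean of 3.49 in HCT-RNAi and FAR6 one of 4.32. Genes furthest below HCT-RNAi included GPT2 (AT1G61800), a plastid importer of glucose phosphate, at 5.04, 4.87 and 5.21 in wild type and 8.14, 8.31 and 8.32 in ccr-1 and at 12.44, 12.44 and 12.57 in HCT-RNAi, a difference of -4.23 ± 0.09 (adjusted p = 1.19e-12). The difference was -3.80 ± 0.10 for MYB90 (AT1G66390), an activator of anthocyanin synthesis, and -3.61 ± 0.08 for APL4 (AT2G21590), a subunit of the starch enzyme ADP-glucose pyrophosphorylase. It was -2.83 ± 0.10 for UF3GT (AT5G54060) and -2.85 ± 0.07 for AT5MAT (AT3G29590), both anthocyanin enzymes. Against wild type these 5 genes were higher in ccr-1, by 3.22, 0.54, 0.98, 1.57 and 0.31.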

How the data were processed

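Total RNA of inflorescence stems was measured on 9 Affymetrix ATH1 arrays, a 1-colour platform with several short probes per probe set. The authors deposited linear intensities of 22810 probe sets per array, processed with RMA (background correction, quantile normalization and summarisation) per the submitters' processing notes, and no version was stated there. The authors' deposited table holds the same intensities for 3785 selected probe sets, with present and absent detection calls for which the notes name MAS5. Such processing fixes the overall level of each array and compresses changes near background. The number of arrays and the background are among the limits on the precision.

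Log2 was taken of the deposited intensities, 64 control probe sets were left out, and the 22746 others were fitted with limma 3.58.1 (R 4.3.3), 1 mean for each group, all 9 arrays sharing an estimate of the spread. Changes were called at an adjusted p under 0.05 (Benjamini-Hochberg over all of them). The procedure was tested on simulated data. Tables were made with Python 3.11.15, numpy 2.4.6 and pandas 2.3.3, and plots with matplotlib 3.10.9.

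Probe sets were named by the platform annotation (13199) or, failing that, by the authors' table (1729). Probe sets that match several genes stayed unnamed, as did 6670 listed by neither source. Symbols came from RefSeq (TAIR10.1). A gene with several probe sets was represented by the one with the highest mean over the 9 arrays. Where the authors called a gene absent on every array of a group, its change is written as at least N-fold, set against the higher of its own signal and the lowest signal called present on each array.

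The 28 gene lists (634 entries, 348 named) were chosen with earlier results of these data known, as was the choice of arrays to compare. Genes named in the text were taken from the list members and from the 25 largest rises and 25 largest falls among called genes whose groups do not overlap. Others came from the 15 largest differences each way from HCT-RNAi among genes called against both other groups, and HCT and CCR1 were added. Not every gene of these sets is described. Alternatives were only the 6 arrays compared, centred arrays, repeated quantile normalization, a variance trend, a limit on mean intensity, 32 added before the logarithm, other naming and leaving out each array.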

Additional observations from a re-analysis of the deposited data

Results flagged for a closer look

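Of 395 named genes (list members and the genes with the largest changes), 4 were called in opposite directions against wild type in the 2 lines, by at least 2-fold in each, and also differed in the direct test of ccr-1 against HCT-RNAi with limma. SEN1 changed by 1.39 in ccr-1 and -1.06 in HCT-RNAi, a difference of 2.45. EXPA8 changed by 1.82 in ccr-1 and -1.59 in HCT-RNAi, a difference of 3.41. AT4G34950, for which no role is given in the sources used here, changed by -1.18 in ccr-1 and 2.15 in HCT-RNAi, a difference of -3.33. AT4G16870, likewise without a stated role, changed by -1.67 in ccr-1 and 1.01 in HCT-RNAi, a difference of -2.69. Both changes of a gene share the wild-type arrays, while the difference does not use them.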

How the results depend on the processing

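All counts of called probe sets stayed within 1.5 times of the reported ones under the alternatives run, except probe sets at least 2-fold lower in ccr-1 than in the HCT-RNAi line, 383 in place of 676 with 32 added before the logarithm. Centring each array moved the median change against HCT-RNAi from -0.012 to 0.062. Of 193 genes named, 4 lost a call against wild type (INO, WRKY6, CCR2 and BXL1), INO also with quantile normalization repeated (0.19). Against HCT-RNAi, 44 of 2850 values of these genes lost the call and 35 gained it. Values changed sign for 16 results, none of them called. The cause of these shifts was not tested. No paired analysis was possible because the arrays are numbered through the series and the groups share no number. Promoter motifs of the seed storage genes were planned and not run, as no promoter sequences were used here. Detection calls exist here only for the probe sets of the authors' table, so no bound could be set for other dim genes.

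With 32 added, list medians were 5.57 for seed storage, 0.60 for seed maturation, 0.999 for late embryogenesis, 0.97 for oil synthesis, 0.39 for seed coat, 1.18 for endosperm, 1.74 for floral regulators, 1.63 for carpel, 0.96 for anther, 0.71 for senescence regulators, 1.18 for senescence-associated genes, -0.48 for laccases and peroxidases, -1.20 for secondary wall factors, -0.52 for pectin, -0.91 for salicylic acid, -0.83 for pattern responses and 0.40 for abscisic acid. With a mean log2 intensity of at least 6 they were 6.86 for seed storage, 0.33 for seed maturation, 0.89 for oil synthesis, 0.41 for seed coat, 3.76 for endosperm, 3.18 for floral regulators, 2.49 for carpel, 2.11 for senescence regulators, 1.47 for senescence-associated genes, -0.997 for laccases and peroxidases and -0.30 for wall-loosening genes, and no root marker was left. With platform names alone, which leave fewer genes, they were 5.29 for seed storage, 0.47 for seed maturation, 1.99 for late embryogenesis, 0.030 for oil synthesis, -0.087 for endosperm, -0.19 for floral regulators, 1.80 for carpel, 0.31 for anther, -1.22 for senescence regulators, -0.071 for senescence-associated genes, -0.21 for photosynthesis, -0.19 for monolignols, 0.86 for laccases and peroxidases, -1.16 for secondary wall cellulose and xylan, -1.05 for secondary wall factors, -0.92 for primary wall, -0.050 for wall-loosening genes, -1.51 for salicylic acid, -0.29 for pattern responses, 2.62 for jasmonate, 1.32 for phloem and 1.02 for epidermis. No abscisic acid or xylem death gene was named that way. Centred arrays gave 1.49 for late embryogenesis and -0.96 for pattern responses, and repeated quantile normalization 0.92 for seed maturation and 0.61 for abscisic acid.

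Leaving out each array in turn, the medians ran from 0.94 to 1.01 for seed maturation, 1.52 to 1.57 for late embryogenesis, 1.33 to 1.44 for senescence-associated genes, -0.35 to -0.29 for photosynthesis, -1.49 to -1.39 for secondary wall factors, -0.97 to -0.90 for pattern responses and -0.82 to -0.71 for jasmonate, and changed sign only for xylem death (-0.061 to 0.038) and root markers (-0.021 to 0.13). Uncalled changes against wild type crossed 0 for IKU2 (-0.055 to 0.11), UFO (-0.098 to 0.0087), ORS1 (-0.029 to 0.11), PPDK (-0.068 to 0.028), RNS3 (-0.00078 to 0.069), MC9 (-0.061 to 0.038), CER3 (-0.054 to 0.011), PYK10 (-0.067 to 0.051) and EXP7 (-0.029 to 0.20). Against HCT-RNAi they did so for SPL (-0.074 to 0.083), WRKY75 (-0.088 to 0.027), GUX1 (-0.023 to 0.025) and NST2 (-0.012 to 0.038). With repeated quantile normalization the change against wild type was -0.021 for IKU2, 0.013 for MC9 and 0.012 for PYK10, and that against HCT-RNAi 0.038 for MYB46. Centred arrays gave differences from HCT-RNAi of 0.074 for SPL, 0.0088 for WRKY6, 0.043 for WRKY75, 0.014 for MYB46 and 0.046 for PDF1.2, and 32 added gave 0.0013 for SPL.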
